A study of Homo sapiens with 6 samples.

Results

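Named long non-coding RNA (lncRNA) genes were followed in HEK293 cells depleted of the RNA-binding protein LIN28B. Their symbols mark them as antisense transcripts (ending in -AS and a digit), divergent transcripts (ending in -DT), intronic transcripts (ending in -IT and a digit), intergenic transcripts (LINC), snoRNA host genes (SNHG) or microRNA host genes (MIR...HG), with MALAT1 added by name. Genes on autosomes were kept, each read by the probe set with the highest mean over the arrays. This gave 275 genes out of the 11584 genes with a name in the table. The 275 were 159 antisense, 35 divergent, 72 LINC, 3 intronic, 3 microRNA host and 2 snoRNA host genes, and MALAT1. The RefSeq table lists 273 of them as lncRNA and 2 as antisense RNA, while 95 further genes that it lists as lncRNA have symbols outside these patterns. NEAT1, GAS5, MEG3 and H19 are not analysed here.

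Total RNA was read on 6 Affymetrix Human Genome U133 Plus 2.0 arrays, 2 in each of 3 groups. Every group was HEK293 T-REx Flp-In, a line of human embryonic kidney origin, stably carrying a doxycycline-inducible LIN28B transgene with a FLAG/HA tag. The knockdown cells received siRNA against LIN28B with the transgene not induced. The mock induced cells were mock transfected, with the transgene induced by doxycycline (250 ng/ml in the labels' protocol), and the mock not induced cells were mock transfected without induction. Arrays of a non-targeting siRNA are not used here, so delivery of an siRNA and loss of LIN28B cannot be told apart. Separate cultures are not stated for the replicates, so that each p-value reflects array-to-array spread that could be purely technical.

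LncRNAs are transcripts that code for no known protein. Antisense and divergent ones arise next to a coding gene. Divergent pairs are transcribed outward from a shared promoter region, and antisense ones run on the strand opposite their partner. The classes here follow the symbols only, and some genes named antisense, such as ZNF667-AS1, also run apart from their partner. By position 54 pairs run apart, while 35 genes are named divergent. Some lncRNAs act as RNA molecules, such as MALAT1 in nuclear speckles, while snoRNA and microRNA host genes carry small RNAs that are cut out of the transcript. LIN28B blocks maturation of the let-7 microRNAs and also binds many messenger RNAs.

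The start regions of 5 of these genes are shown because their knockdown values recur below: the antisense gene that fell furthest, and 4 of the 5 genes that changed the same way as their coding partner. The fifth, ZNF232-AS1, is not printed: its start faces that of ZNF232 from 11181 bases away, and the windows share 0 bases. Each is the 300-base RefSeq window of assembly GRCh38.p14, from 250 bases before to 50 after the start, written 5′ to 3′ along the lncRNA. Capitals mark bases that also lie in the same window of the coding partner.
THAP7-AS1 (chr22:21001672-21001971, plus strand): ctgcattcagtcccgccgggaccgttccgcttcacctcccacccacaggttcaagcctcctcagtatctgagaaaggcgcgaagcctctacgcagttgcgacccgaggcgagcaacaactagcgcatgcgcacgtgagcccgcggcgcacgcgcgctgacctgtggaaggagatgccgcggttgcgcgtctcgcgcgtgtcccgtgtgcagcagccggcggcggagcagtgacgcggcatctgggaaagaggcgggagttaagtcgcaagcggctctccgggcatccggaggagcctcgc
DPY19L3-DT (chr19:32405490-32405789, minus strand): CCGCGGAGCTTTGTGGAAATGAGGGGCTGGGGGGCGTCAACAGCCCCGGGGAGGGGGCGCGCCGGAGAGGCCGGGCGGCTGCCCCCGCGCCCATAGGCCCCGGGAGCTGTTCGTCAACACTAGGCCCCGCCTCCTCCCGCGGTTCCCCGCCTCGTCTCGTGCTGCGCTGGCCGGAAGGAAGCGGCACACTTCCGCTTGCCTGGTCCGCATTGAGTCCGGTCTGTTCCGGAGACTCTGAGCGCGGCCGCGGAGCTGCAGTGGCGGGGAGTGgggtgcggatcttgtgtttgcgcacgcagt
EIF3J-DT (chr15:44536874-44537173, minus strand): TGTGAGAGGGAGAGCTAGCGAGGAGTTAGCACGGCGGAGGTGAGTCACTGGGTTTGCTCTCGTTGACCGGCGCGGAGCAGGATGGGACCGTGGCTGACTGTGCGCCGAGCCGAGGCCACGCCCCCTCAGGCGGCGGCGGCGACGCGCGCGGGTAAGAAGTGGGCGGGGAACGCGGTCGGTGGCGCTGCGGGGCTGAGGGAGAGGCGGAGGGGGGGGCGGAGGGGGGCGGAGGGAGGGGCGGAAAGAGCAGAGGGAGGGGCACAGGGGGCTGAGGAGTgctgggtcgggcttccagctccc
ZDHHC12-DT (chr9:128724212-128724511, plus strand): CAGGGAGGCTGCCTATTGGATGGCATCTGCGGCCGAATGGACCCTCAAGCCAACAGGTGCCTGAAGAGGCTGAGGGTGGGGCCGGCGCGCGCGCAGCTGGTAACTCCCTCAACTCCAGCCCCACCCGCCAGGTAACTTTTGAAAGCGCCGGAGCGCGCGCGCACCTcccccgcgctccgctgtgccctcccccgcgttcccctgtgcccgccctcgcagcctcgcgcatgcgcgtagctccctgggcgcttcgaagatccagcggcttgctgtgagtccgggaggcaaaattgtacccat
ZNF667-AS1 (chr19:56477624-56477923, plus strand): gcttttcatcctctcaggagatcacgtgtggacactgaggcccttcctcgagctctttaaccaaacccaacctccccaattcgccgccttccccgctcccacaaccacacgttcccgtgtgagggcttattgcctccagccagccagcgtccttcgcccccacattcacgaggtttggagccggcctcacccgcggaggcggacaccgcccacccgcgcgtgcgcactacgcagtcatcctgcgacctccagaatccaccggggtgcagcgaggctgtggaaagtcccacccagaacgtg
The windows of DPY19L3-DT and EIF3J-DT are almost wholly shared with the partner, with 270 and 277 bases in common and starts 231 and 224 bases apart. ZDHHC12-DT shares 166 bases with ZDHHC12, at a distance of 335 bases. THAP7-AS1 and ZNF667-AS1 share no base of the window with their partners, although their starts lie only 196 and 529 bases away. The THAP7-AS1 and THAP7 starts face each other, so the transcripts run into one another, while the other 4 pairs run apart.

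LIN28B itself read 7.51 and 7.53 in knockdown cells, 10.15 and 10.11 in mock induced cells, and 10.02 and 9.85 in mock not induced cells, all log2 values. Knockdown cells were lower by a log2 fold change of -2.42 (SE 0.078, adjusted p = 5.02e-07), which leaves 18.7% of the mock not induced level. The probe set read 0.19 higher in mock induced than in mock not induced cells, a difference that was not called. Array medians lay between 7.126 and 7.177. Arrays of 1 group correlated at 0.990 to 0.994 over all probe sets and knockdown with mock arrays at 0.970 to 0.975. The mock not induced arrays correlated at 0.9899, below every correlation between a mock induced and a mock not induced array (0.9916 to 0.9935). Of 8 HEK293 markers in the table, KRT18 and PAX8 were not called. KRT8 (0.38), EPCAM (0.28) and CHGB (0.98) rose, and VIM (-0.18), NEFL (-0.59) and NCAM1 (-1.13) fell. The blood and fibroblast markers in the table (CD79A, HBB and COL1A1) had means of 4.97 to 6.16 and were not called. PAX2, NEFM, DBH and all endothelial markers are not analysed here. The part of these shifts in the lncRNA results was not tested.

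Between knockdown cells and mock not induced cells, 49 lncRNA genes fell and 22 rose, judged by an adjusted p under 0.05 whatever the fold, while 204 were not called. The genes that fell make up 17.8% of the 275, against 14.5% lower among all genes tested. The genes that rose make up 8.0%, against 13.5% higher among all genes. No test of the list was made, and the 275 centred close to no change: their median log2 fold change was -0.03, against 0.01 for all genes, with 129 positive and 146 negative values. Most changes were modest. The called lncRNA genes had a median size of 0.599 on the log2 scale, against 0.489 for all called genes. At least 2-fold changes were few, with 3 lncRNA genes lower (background 1.29%) and 2 higher (background 0.906%). In all 71 called genes the knockdown arrays did not overlap the mock not induced arrays. With 2 arrays a group a call nearly requires this, so it adds no support. The same share over all called genes is not given here. Both knockdown arrays lay below all 4 mock arrays for 73 of the 275 (26.0% of all genes) and above all 4 for 50 (27.1% of all genes). The count rests in part on single arrays: 23 lower and 10 higher were called without knockdown replicate 1, and 34 lower and 10 higher without knockdown replicate 2. Of the 71, 29 were called whichever array was left out, 23 that fell and 6 that rose. That is 40.8%, against 41.7% of called genes over the whole table.

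**Figure D1:**
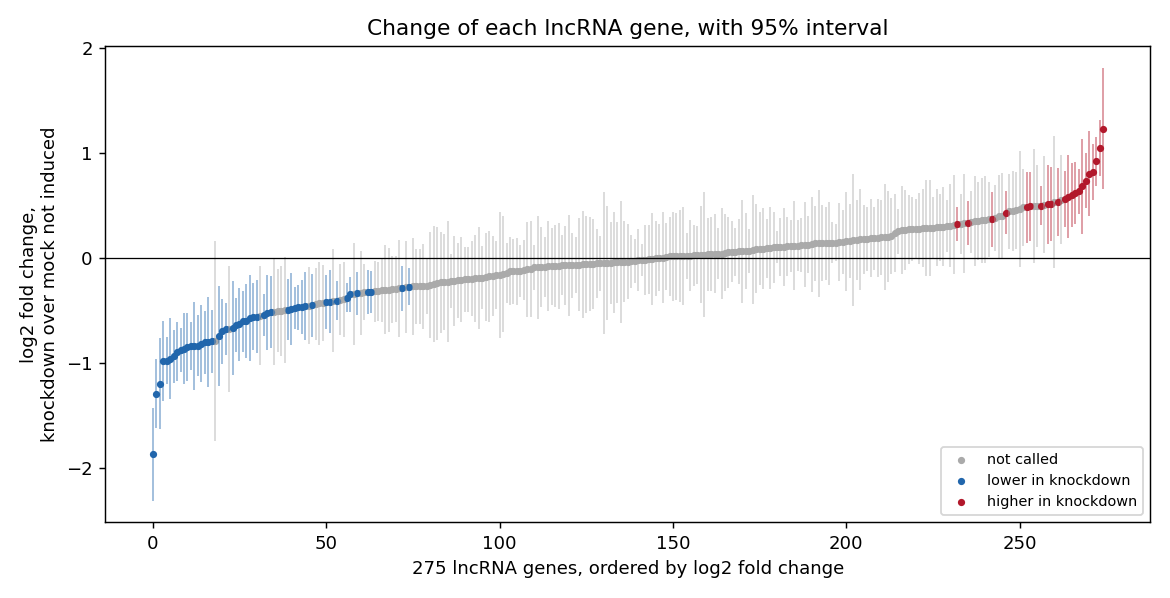
Log2 fold change of knockdown over mock not induced cells (vertical axis) for the 275 lncRNA genes in order of that change (horizontal axis), with 95% intervals from the fit. Blue points are the 49 genes lower in knockdown cells, red points the 22 higher and grey points the 204 not called; THAP7-AS1 stands alone at -1.87 and LINC00312 at the other end at 1.24.

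The level of a probe set bore on how often its gene was called. These lncRNA genes read low, with means over all arrays from 4.84 to 10.0. Among the 86 with a mean under 5.5, 3.49% fell and 5.81% rose, against 7.06% and 10.2% of other genes in that band. Among the 70 between 6.5 and 8, 31.4% fell and 10.0% rose, against 14.4% and 10.8% of other genes there. The 102 genes between 5.5 and 6.5 lay between these, with 17.6% lower and 5.88% higher, against 10.6% and 6.97%. Of the 17 genes at 8 or above, 35.3% fell and 23.5% rose, against 19.4% and 22%. The bands were set after the values were seen and were not tested. The deposited table holds nearly only probe sets above 5 on at least 2 arrays, so a gene low in both groups of a comparison is mostly missing. Among the 275, 4 passed 5 on the 2 knockdown arrays but nowhere among the mock arrays (LINC01260, IDI2-AS1, SMAD5-AS1 and LINC00312). A further 14 were above 5 on 2 or more mock arrays and on no knockdown array. Against mock not induced cells, LINC00312 was called higher, and DICER1-AS1 and DCST1-AS1 lower. Most such genes would stand in the table only through the group where they are high, so their calls were not taken as support. They nevertheless stay in the counts and shares given for the 275 and for the classes, and in the figures. On all 6 arrays, 211 were above 5, of which 44 fell and 17 rose. Among all genes tested, at any level, 14.5% fell and 13.5% rose. Counts of other genes by these conditions on 5 are not given here, so they show nothing particular to lncRNA genes.

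Of 159 antisense transcripts, 30 fell (18.9%, against 14.5% of all genes tested) and 15 rose (9.43%, against 13.5%), with a median of -0.05. THAP7-AS1, opposite the chromatin-associated repressor THAP7, changed most of all 275 by size. It read 4.59 and 5.19 in knockdown cells, 6.61 and 6.69 in mock induced cells and 6.89 and 6.63 in mock not induced cells. Every mock array lay above both knockdown arrays, by more than the 4 mock arrays differed from each other. The log2 fold change was -1.87 (SE 0.197, adjusted p = 0.000195) against mock not induced cells and -1.76 (adjusted p = 0.000262) against mock induced cells. One of its knockdown readings lies under 5, at the low end of the scale. THAP7-AS1 is above 5 on at least 2 arrays only through the mock arrays, where it is high. Its gap between the groups is thus a description only.

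DICER1-AS1, beside the gene for the enzyme that cuts microRNA precursors, read 4.37 and 4.59 in knockdown cells, 5.38 and 5.48 in mock induced cells, and 5.41 and 5.51 in mock not induced cells. Its log2 fold change was -0.98 (SE 0.171, adjusted p = 0.00253), with both knockdown values at the low end of the scale. DICER1-AS1 is 1 of the 14 genes above 5 on mock arrays and on no knockdown array. GABPB1-AS1, at the gene of an ETS-family partner subunit, read 7.14 and 7.24 in knockdown cells against 8.17 and 8.16 in mock not induced cells (log2 fold change -0.98, SE 0.100, adjusted p = 0.000171). The mock induced cells, at 8.05 and 8.23, were on the side of the mock not induced cells. CIRBP-AS1, opposite a cold-inducible RNA-binding protein gene, read 5.74 and 6.08 in knockdown cells, 6.82 and 6.72 in mock induced cells, and 6.65 and 7.09 in mock not induced cells (log2 fold change -0.96).

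CCDC18-AS1 read 6.10 and 6.15 in knockdown cells, against 7.07 and 7.05 in mock not induced cells, a log2 fold change of -0.94 (SE 0.113). TMEM147-AS1 lies opposite a gene for an endoplasmic reticulum membrane protein. It read 7.24 and 7.60 in knockdown cells, against 8.26 and 8.36 in mock not induced cells (-0.89, SE 0.126). ATP2A1-AS1, at a calcium pump gene, read 7.30 and 7.33 in knockdown cells, against 8.26 and 8.12 in mock not induced cells (-0.87, SE 0.0931). GNAS-AS1 belongs to the imprinted GNAS locus, whose coding product is a G protein alpha subunit. It read 6.01 and 6.47 in knockdown cells, against 7.17 and 7.04 in mock not induced cells (-0.86, SE 0.152). TBX2-AS1, beside a T-box transcription factor gene, read 5.93 and 6.29 in knockdown cells, against 6.86 and 7.05 in mock not induced cells (-0.85, SE 0.146). PXN-AS1, opposite the gene of the focal adhesion protein paxillin, read 6.60 and 6.70 in knockdown cells, against 7.50 and 7.48 in mock not induced cells (-0.84, SE 0.103). In each of these 6 genes both mock induced arrays also lay above both knockdown arrays, and all 6 were called whichever array was left out.

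The other 20 antisense genes that fell had log2 fold changes between -0.84 and -0.29. Among them OIP5-AS1, a conserved lncRNA known for its pairing with a microRNA, read 7.93 and 8.06 in knockdown cells, against 8.45 and 8.48 in mock not induced cells (log2 fold change -0.47). EPB41L4A-AS1, a host of a snoRNA, was among the brightest and read 9.73 and 9.84 in knockdown cells, against 10.19 and 10.14 in mock not induced cells (-0.38, SE 0.0627). These 2 were chosen for mention after their values were seen.

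The largest antisense rise was that of ZNF667-AS1, whose start region is printed above and whose partner encodes a zinc finger protein. Its probe set is of the _s_at kind, which can match several transcripts. It read 7.45 and 7.32 in knockdown cells, 6.47 and 6.47 in mock induced cells, and 6.41 and 6.27 in mock not induced cells. The log2 fold change was 1.05 (SE 0.119, adjusted p = 0.000288). OTUD6B-AS1, at a deubiquitinase gene, read 8.07 and 8.06 in knockdown cells, against 7.24 and 7.05 in mock not induced cells (0.92, SE 0.106). ERCC6L2-AS1, opposite a DNA repair gene, read 6.97 and 6.95 in knockdown cells, against 6.15 and 6.12 in mock not induced cells (0.82, SE 0.120). RFX5-AS1, opposite the gene of a regulator of MHC class II, read 7.57 and 7.64 in knockdown cells, against 6.99 and 6.75 in mock not induced cells (0.74, SE 0.117). These 4 were called whichever array was left out.

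Other antisense rises rested on fewer arrays. EXOC3-AS1, at an exocyst subunit gene, read 5.91 and 5.84 in knockdown cells, 5.40 and 5.62 in mock induced cells, and 5.28 and 4.87 in mock not induced cells. Its log2 fold change was 0.80 (adjusted p = 0.00909) against mock not induced cells and 0.36 (adjusted p = 0.167) against mock induced cells. LOXL1-AS1, at a lysyl oxidase-like gene, read 6.23 and 6.08 in knockdown cells, 5.16 and 5.70 in mock induced cells, and 5.63 and 5.31 in mock not induced cells (0.68, SE 0.201, adjusted p = 0.0307). FAM131B-AS2 read 6.32 and 6.44 in knockdown cells, against 5.79 and 5.74 in mock not induced cells (0.62, SE 0.132). EXOC3-AS1 was no longer called without knockdown replicate 1, FAM131B-AS2 without knockdown replicate 2, and LOXL1-AS1 without either of them or without mock not induced replicate 2. The called antisense genes also include 3 from the HOX clusters, which hold genes of positional identity: HOXD-AS2 (0.54) and HOXA-AS2 (0.51) rose and HOXB-AS3 (-0.32) fell. They were picked out after their values were seen. HOXA-AS2 and HOXB-AS3 kept their calls only without mock not induced replicate 2, and HOXD-AS2 lost its call without either knockdown array or without mock not induced replicate 2.

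**Figure D2:**
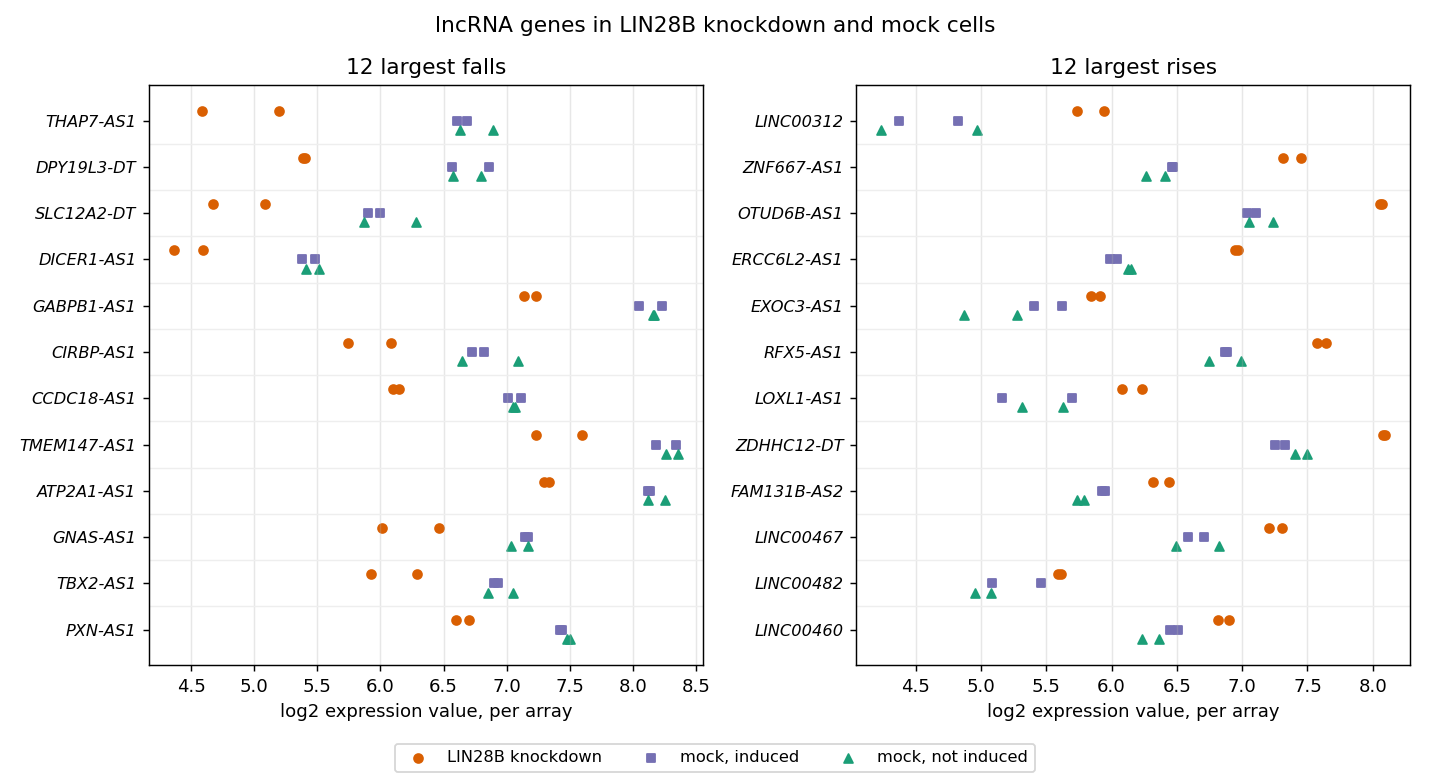
Log2 expression value on each array (horizontal axes) for the 12 largest falls (left) and 12 largest rises (right) among called lncRNA genes, with knockdown as circles, mock induced as squares and mock not induced as triangles. For all 12 falls both knockdown arrays lie below every mock array, and THAP7-AS1 shows the widest gap.

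Of 35 divergent transcripts, 8 fell (22.9%, against 14.5% of all genes tested), 2 rose (5.71%, against 13.5%) and 25 were not called. Their median was -0.12, with 14 positive and 21 negative values. DPY19L3-DT starts beside DPY19L3, of a family of C-mannosyltransferases. It read 5.40 and 5.39 in knockdown cells, 6.56 and 6.86 in mock induced cells, and 6.57 and 6.80 in mock not induced cells (log2 fold change -1.29, SE 0.148, adjusted p = 0.000306). SLC12A2-DT, beside the gene of a sodium, potassium and chloride cotransporter, read 4.68 and 5.08 in knockdown cells, 6.00 and 5.91 in mock induced cells, and 6.28 and 5.87 in mock not induced cells (-1.20, SE 0.194, adjusted p = 0.00178). In both genes all mock arrays stood above the knockdown arrays. SLC12A2-DT has 1 knockdown reading under 5 and is above 5 on at least 2 arrays only through the mock arrays. Its gap is thus a description only. EIF3J-DT, beside a subunit gene of translation initiation factor eIF3, read 6.19 and 6.00 in knockdown cells, against 6.79 and 7.002 in mock not induced cells (-0.80, SE 0.133, adjusted p = 0.00201). The other 5 that fell were UBL7-DT, TMEM161B-DT, FAM86B2-DT, CNN3-DT and PAXIP1-DT, none closer to 0 than -0.33. FAM86B2-DT, CNN3-DT and PAXIP1-DT each lost their call without knockdown replicate 1 and under at least 1 more omission of an array.

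ZDHHC12-DT, beside a palmitoyltransferase gene, was the larger of the 2 divergent rises. It read 8.08 and 8.10 in knockdown cells, 7.25 and 7.33 in mock induced cells, and 7.50 and 7.41 in mock not induced cells (log2 fold change 0.64, SE 0.0965, adjusted p = 0.00132). CTBP1-DT rose by 0.48 (adjusted p = 0.0409). It differed by 0.31 without mock not induced replicate 1, and it kept its call only without mock not induced replicate 2. EDRF1-DT had a difference of -0.79 but was not called (95% interval -1.75 to 0.16). Its knockdown arrays read 3.84 and 5.24, more apart than the groups.

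Of 72 LINC genes, 9 fell (12.5%, against 14.5% of all genes tested) and 5 rose (6.94%, against 13.5%), with a median of 0.08. Differences between the classes were not tested. LINC00312 rose most of all 275 and read 5.94 and 5.73 in knockdown cells, 4.82 and 4.37 in mock induced cells, and 4.24 and 4.97 in mock not induced cells. The log2 fold change was 1.24 (SE 0.260, adjusted p = 0.00653), from mock values at the low end of the scale. Without knockdown replicate 1 it was 1.13 and no longer called (adjusted p = 0.0619). It is 1 of the 4 genes that pass 5 only on knockdown arrays.

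LINC00467 read 7.21 and 7.31 in knockdown cells, against 6.83 and 6.49 in mock not induced cells (log2 fold change 0.60). LINC00482 read 5.59 and 5.61 in knockdown cells, 5.46 and 5.09 in mock induced cells, and 5.07 and 4.96 in mock not induced cells (0.59, adjusted p = 0.0338). LINC00460 read 6.90 and 6.82 in knockdown cells, against 6.36 and 6.23 in mock not induced cells (0.56). The groups did not overlap in these genes, but LINC00460 lost its call without knockdown replicate 1, LINC00467 without knockdown replicate 2, and LINC00482 without any 1 of the knockdown or mock not induced arrays. The fifth LINC rise was LINC00667 (0.49), which lost its call without either knockdown array or without mock not induced replicate 1. Among the falls, LINC01315 was the furthest at -0.70, with 6.22 and 6.32 in knockdown cells against 6.79 and 7.15 in mock not induced cells. The others were LINC02593, LINC00957, LINC00294, LINC01003, LINC00674, LINC02987, LINC00339 and LINC00623, none closer to 0 than -0.27. LINC01315, LINC00294 and LINC02987 were called whichever array was left out. The remaining LINC falls lost their call at least without knockdown replicate 1.

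Of the 2 snoRNA host genes, SNHG17 fell and SNHG19 was not called. SNHG17 read 8.96 and 9.04 in knockdown cells, 9.28 and 9.33 in mock induced cells, and 9.29 and 9.40 in mock not induced cells (log2 fold change -0.35, SE 0.0743, adjusted p = 0.00717). The call was lost without knockdown replicate 1 (-0.31, adjusted p = 0.0704). SNHG19 read 9.83 and 9.98 in knockdown cells, 9.70 and 9.82 in mock induced cells, and 9.71 and 9.81 in mock not induced cells, a difference of 0.15 (95% interval -0.03 to 0.32). Neither MALAT1 nor any microRNA host gene was called. MALAT1 read 7.07 and 6.99 in knockdown cells, 7.07 and 6.83 in mock induced cells, and 7.06 and 7.13 in mock not induced cells, through a probe set of the _s_at kind that can match several transcripts. Its difference was -0.07 (95% interval -0.34 to 0.20). The differences of the microRNA host genes were -0.07 for MIR646HG (-0.38 to 0.24), 0.05 for MIR1915HG (-0.28 to 0.39) and 0.06 for MIR550A3HG (-0.23 to 0.35). Of the 3 intronic transcripts, SND1-IT1 fell (-0.52, adjusted p = 0.0352). Its call held only when mock not induced replicate 1 was the array left out, with adjusted p between 0.0537 and 0.196 without each of the others.

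**Figure D3:**
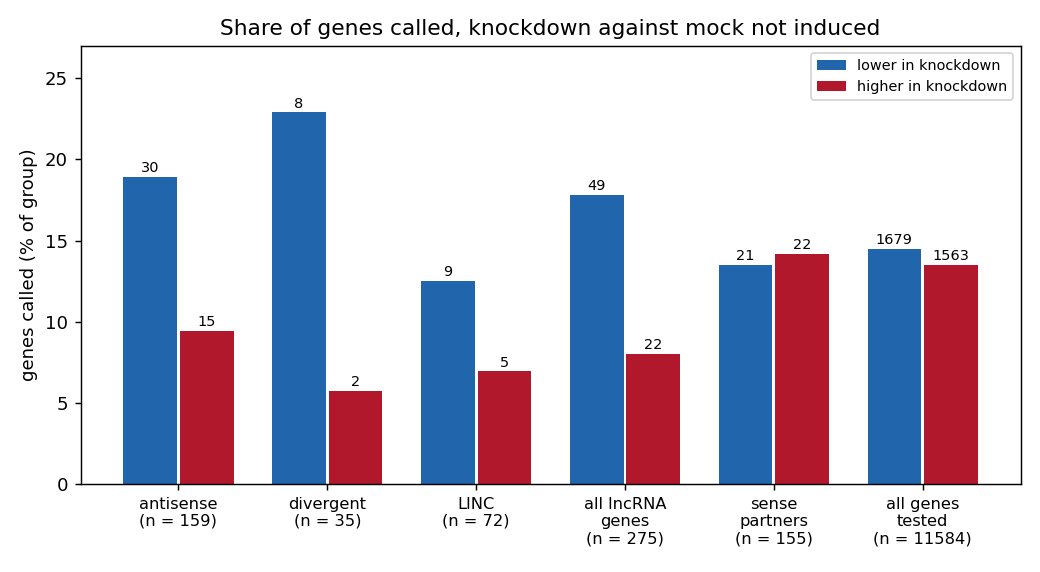
Percentage of genes called lower (blue) and higher (red) in knockdown against mock not induced cells, by class, with the number of genes over each bar. Divergent (22.9% lower) and antisense (18.9% lower) transcripts have taller blue bars than their sense partners (13.5%) and than all genes tested (14.5%), differences that were not tested.

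Coding partners of the lncRNA genes were read in the same fit, taking as partner the gene whose symbol stands before -AS, -DT or -IT. In the table, 155 such partners make 156 pairs. The partners changed in both directions about equally, with 21 lower (13.5%) and 22 higher (14.2%) and a median of 0.005. In most pairs with a called lncRNA gene the partner was not called, in 27 of 33 that fell and in 10 of 14 that rose. Most genes were not called in any case: 112 of all 155 partners were not, and 28.0% of all genes tested were called in either direction. Over the 156 pairs the log2 fold changes correlated weakly (Pearson r = 0.18, Spearman rho = 0.19), a description over genes that share arrays. Where a probe set can match both transcripts of a pair, they cannot be told apart.

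THAP7 did not follow its antisense transcript. It read 7.74 and 7.75 in knockdown cells, against 7.65 and 7.62 in mock not induced cells (log2 fold change 0.11, SE 0.092, adjusted p = 0.411). DICER1 differed by -0.16 (SE 0.098, adjusted p = 0.267). Among the other partners of the largest falls, SLC12A2 differed by -0.17, GABPB1 by 0.10, CIRBP by 0.17, CCDC18 by -0.09, ATP2A1 by -0.09, GNAS by -0.14, TBX2 by -0.10 and PXN by -0.37, none of them called. Among partners of the largest rises, OTUD6B differed by 0.16, ERCC6L2 by 0.25, EXOC3 by 0.20, RFX5 by 0.11 and LOXL1 by -0.47, none called either.

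In 2 pairs both genes fell, and both are divergent pairs whose start windows, printed above, overlap. Over all partners in the table, 13.5% fell and 14.2% rose, and shared calls were not tested against those shares. By position, 49 pairs run apart from starts within 1000 bases, and how many of them share window bases is not given here. DPY19L3 read 8.79 and 8.88 in knockdown cells, against 9.66 and 9.54 in mock not induced cells (log2 fold change -0.77). EIF3J read 8.53 and 8.50 in knockdown cells, against 9.55 and 9.41 in mock not induced cells (-0.97). In 3 pairs both rose. ZNF667 read 6.31 and 6.19 in knockdown cells, against 5.45 and 5.43 in mock not induced cells (0.81), beside an antisense gene read by an _s_at set. ZNF232, also a zinc finger gene, read 9.07 and 8.92 in knockdown cells, against 8.31 and 8.09 in mock not induced cells (0.80), beside 0.50 for ZNF232-AS1. ZDHHC12 read 7.25 and 7.06 in knockdown cells, against 6.82 and 6.62 in mock not induced cells (0.43). All 5 lncRNA genes of these pairs were called whichever array was left out.

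Opposite calls were found in 5 pairs. The lncRNA gene fell and the partner rose for TMEM147 (0.20), PRKAG2 (0.41), a subunit gene of the AMP-activated kinase, OIP5 (0.23) and CNN3 (0.27). CTBP1, a corepressor gene, fell by 0.38 on the log2 scale while CTBP1-DT rose. Of these 5 lncRNA genes, TMEM147-AS1 and OIP5-AS1 were called whichever array was left out. In 18 pairs only the partner fell and in 15 only the partner rose. HHIP, which binds and restrains hedgehog ligands, read 4.32 and 4.54 in knockdown cells, against 5.68 and 5.93 in mock not induced cells. Its difference was -1.37, from knockdown values at the low end of the scale. HHIP-AS1, whose start lies 137 bases away, differed by 0.40 and was not called (95% interval -0.01 to 0.81).

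Distance between the starts was taken from the RefSeq windows for 144 pairs, of which 142 lie on opposite strands. Of these, 81 have starts within 1000 bases, and 74 of the 81 have a partner in the table. Among the 74, 17 lncRNA genes fell and 7 rose, with a median of -0.12 against 0.01 for their partners (r = 0.23). Among the 41 farther pairs in the table, 11 fell and 3 rose, with a median of -0.07 against 0.03 for their partners (r = 0.12). Over all genes tested, 14.5% fell and 13.5% rose. The nearer and farther pairs differ in number, so their raw counts cannot be compared directly, and no test between them was made.

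**Figure D4:**
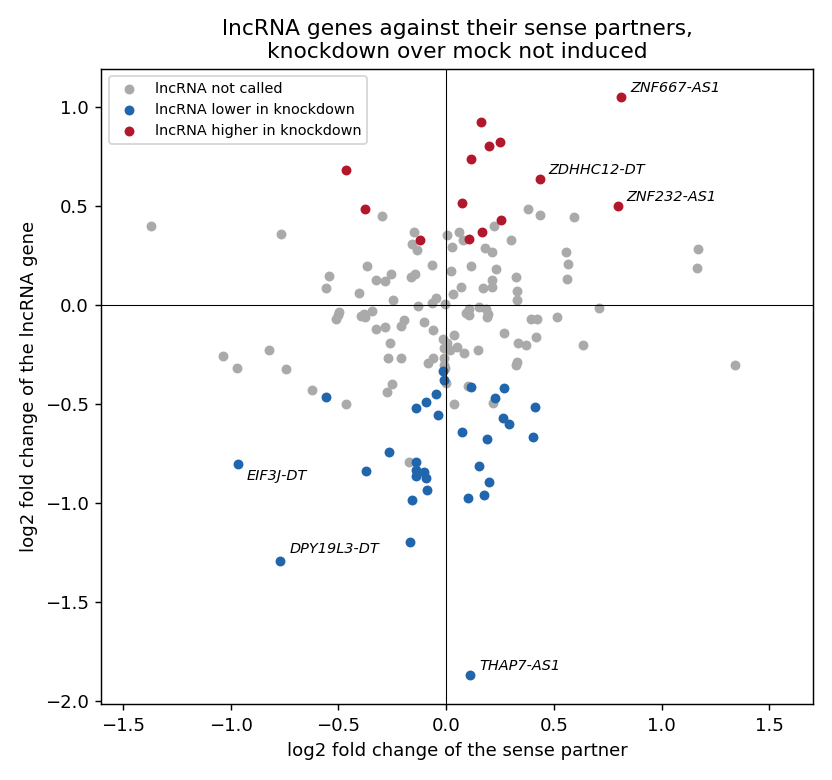
Log2 fold change of each lncRNA gene (vertical axis) against that of its coding partner (horizontal axis), knockdown over mock not induced cells, for 156 pairs; colours give the call of the lncRNA gene. EIF3J-DT and DPY19L3-DT lie low with their partners, 3 named genes lie high with theirs, and THAP7-AS1 lies at -1.87 with its partner at 0.11.

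The start windows of 213 of the 275 genes matched the RefSeq promoter table of 27305 windows, and both strands were searched for short motifs. The windows were rich in CG: the median was 23 CG dinucleotides for the 213, against 14 for all promoters. It was 28 in the 45 matched genes that fell, 24 in the 18 that rose and 21.5 in the 150 not called. The window of THAP7-AS1, printed above, holds 38. CCGGAAG, a core bound by ETS factors, was in 18.3% of the lncRNA windows and 10.7% of all. It was in 11.1% of the windows of genes that fell, 22.2% of those that rose and 20.0% of those not called. GGGCGG, the letters of a GC box, was in 56.8% of the lncRNA windows and 44.6% of all. CCAAT was in 39.0% of the lncRNA windows, close to the 35.7% of all promoters. A TATA box (TATAAA) was in 3.29% of the lncRNA windows and 12% of all. The palindrome bound by NRF1 was in 4 of the 213 windows (1.88%) and in 1.36% of all. The 4 comprised 3 genes that fell and 1 that rose, THAP7-AS1 and ZDHHC12-DT among them. The background was 14.5% lower and 13.5% higher among all genes tested, and no link between a motif and the calls was tested. No motif searched holds the letters of another, and a match is a description of the window only.

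By chromosome the counts were small, and they were not tested against the 14.5% lower and 13.5% higher of all genes. Chromosome 1 held 33 of the genes, with 7 lower and 2 higher, and chromosome 7 held 24, with 7 lower and 3 higher (median -0.29). Chromosome 19 held 14, with 5 lower and 1 higher, and chromosome 15 held 11, with 4 lower and 1 higher. Chromosome 17 held 15, with 3 in each direction. On chromosome 9, 0 of 13 fell and 2 rose, and on chromosome 18, 0 of 6 fell and 2 rose (median 0.35). None of 14 on chromosome 10 was called.

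Between mock induced and mock not induced cells, no lncRNA gene was called by limma, with 0.0% called among all genes. At an unadjusted p under 0.05 there were 11 lncRNA genes and 344 genes in all. The median lncRNA difference was 0.02, and the values ran from -0.56 to 0.56. The smallest unadjusted p-values in each direction belonged to NDUFB2-AS1 (0.49) and HHIP-AS1 (0.56) and to ZNF225-AS1 (-0.56) and DLG5-AS1 (-0.39), with a limma adjusted p of 0.999 in each. NDUFB2-AS1 read 5.46 and 5.59 in knockdown cells, 5.43 and 5.56 in mock induced cells, and 4.96 and 5.06 in mock not induced cells. The knockdown and mock induced arrays thus interleaved, and the rise of 0.52 against mock not induced cells stood beside 0.03 against mock induced cells. That rise was no longer called whichever array was left out (adjusted p between 0.0574 and 0.167). ZNF225-AS1 had the mirrored pattern, at 5.39 and 5.96 in knockdown cells, 5.601 and 5.96 in mock induced cells, and 6.33 and 6.35 in mock not induced cells.

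Between knockdown and mock induced cells, 45 lncRNA genes fell and 21 rose, with a median of -0.05, against 14.5% lower and 14.0% higher among all genes. This comparison uses the same knockdown arrays as the one with mock not induced cells. The higher count was 11 without knockdown replicate 1, 8 without knockdown replicate 2, 9 without mock induced replicate 1 and 12 without mock induced replicate 2. The lower count was 23 without knockdown replicate 1 and 26 without mock induced replicate 2. Of the 49 that fell against mock not induced cells, 40 also fell here, and 14 of the 22 that rose also rose here. The same shares over all called genes are not given here, so these counts show nothing particular to lncRNA genes. THAP7-AS1, DPY19L3-DT (-1.32) and SLC12A2-DT (-1.07) were again at least 2-fold lower, and LINC00312 (1.24) was at least 2-fold higher. Called in this comparison alone were 5 lower genes, AGPAT4-IT1 (-0.80), DLX6-AS1 (-0.89), ICA1-AS1 (-0.74), ARRDC3-AS1 and LINC00662. DLX6-AS1 and ARRDC3-AS1 are among the 14 genes above 5 on mock arrays and on no knockdown array. The 7 higher genes called here alone were LINC03124 (0.68), DLG5-AS1 (0.50), NR2F1-AS1 (0.38), LINC02809, IDI2-AS1, SMAD5-AS1 and MBNL1-AS1. Of these, IDI2-AS1 and SMAD5-AS1 are among the 4 genes that pass 5 only on knockdown arrays, as is LINC00312. Their calls were not taken as support for a rise. DLX6-AS1, opposite a homeobox gene of forebrain development, read 4.24 and 4.70 in knockdown cells, 5.24 and 5.47 in mock induced cells, and 4.76 and 5.17 in mock not induced cells. Its difference from mock not induced cells was -0.49 (95% interval -0.996 to 0.01), and whether the 2 comparisons differ was not tested.

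Genes of the machinery that makes, holds and degrades such RNAs were counted in the same fit, knockdown against mock not induced. Among all genes tested 14.5% fell and 13.5% rose, and none of the lists was tested against that share. Of 15 small nucleolar RNP proteins and assembly factors in the table, 7 fell (46.7%) and 3 rose (20.0%), with a median of -0.17, against 0.01 for all genes. NOLC1, a nucleolar chaperone of these particles, fell (-0.52), as did the helicase RUVBL1 (-0.39), and the assembly factors NAF1 (0.47) and ZNHIT3 (0.37) rose. Of 13 paraspeckle and NEAT1 processing proteins, 5 fell (38.5%) and 1 rose (7.69%), with a median of -0.21. The 3′ end processing partners CPSF6 (-0.56) and NUDT21 (0.57) changed in opposite directions, and TARDBP (-0.45) and DAZAP1 (-0.33) fell. Of 19 nuclear exosome subunits and adaptors, 2 fell (10.5%) and 4 rose (21.1%), with ZC3H18 (-1.13) and ZFC3H1 (-0.48) lower and C1D (0.63) and EXOSC1 (0.48) higher. Of 15 nonsense-mediated decay and exon junction factors, SMG8 (0.54) alone was called. Of 13 microRNA maturation genes, 3 fell (23.1%) and 2 rose (15.4%). The falls were LIN28B, the gene targeted by the siRNA, the exportin XPO5 (-0.68) and the uridylyltransferase TUT4 (-0.55), and the rises were AGO2 (0.51) and AGO1 (0.48). In bulk RNA, fewer cells with a transcript and less of it per cell cannot be told apart.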

How the data were processed

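RNA of 6 arrays was compared in 3 labelled groups of 2. The values are log2 values per probe set, deposited by the authors; the submitters' processing notes name affy and GCRMA for this step, with no versions. The method corrects background with a model of probe sequence and summarises probe sets on the log2 scale; base 2 was taken as the base it returns. No detection calls were used, so precision rests on the number of arrays, and values near 5 were read as the low end of the scale.

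Of 13008 probe sets, 11719 had 1 gene symbol in the platform annotation, 609 several and 680 none. Symbols were updated to RefSeq (GRCh38.p14), which matched 11578 of 11584 genes. Of 284 genes with a matching name, 7 on chromosome X and 2 with no chromosome listed were left out. Of the 275 kept, 4 had a second probe set (GARS1-DT, LINC00475, LINC02210 and MAGI2-AS3), and 39 were read by _x_at or _s_at sets, which can match several transcripts.

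All genes were fitted together over the 6 arrays with limma 3.58.1 in R 4.3.3 (lmFit, then eBayes with a trend), two-sided, with Benjamini-Hochberg adjustment over 11584 genes and a threshold of 0.05. The fit left 3 residual degrees of freedom and took 6.73 from the prior. A filter at 4 on 2 arrays removed 0 genes. The procedure was tested on simulated data, with changes of 1 on the log2 scale and the same spread for every gene. Smaller changes, such as the median of 0.599 among called lncRNA genes, were not simulated. The lncRNA genes and the lists were chosen with earlier results of these data known. Named genes are the 12 largest called falls and rises whose arrays do not overlap, THAP7-AS1, MALAT1, the SNHG and microRNA host genes, genes called against mock induced cells, partners of the named genes, and up to 4 genes per list. Replicate numbers were checked as pairs: deviations from group means correlated at 0.18, -0.059 and 0.012 between groups, so the numbers were not taken to pair arrays. Alternatives were another scaling, stricter filters and thresholds, other control arrays, no trend, and leaving out each array.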

Additional observations from a re-analysis of the deposited data

How the results depend on the processing

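Against mock not induced cells, the counts of 22 higher and 49 lower became 2 and 3 with a 2-fold minimum, and 13 and 27 at an adjusted p under 0.01. Against mock induced cells, 21 and 45 became 1 and 3, and 10 and 27. Leaving out each array in turn gave 10 to 21 higher and 23 to 43 lower against mock not induced cells, and 8 to 23 higher and 23 to 53 lower against mock induced cells. The lowest counts come with 1 knockdown array, which is then assumed to vary like the other groups. The median of -0.03 moved to -0.0053 with arrays centred on their medians, which shifts the median of all genes to 0.04, and to -0.078 among the 154 lncRNA genes above 6 on 2 arrays. Centring gave 28 higher and 47 lower, all 4 mock arrays as control 27 and 54, and leaving out _x_at and _s_at sets 18 and 45. Adding the 9 names on X or with no chromosome listed, an alternative chosen after seeing the data, gave 25 and 49. With the replicate number as a block, 21 rose and 50 fell against mock not induced cells, 20 and 49 against mock induced cells, and 0 in either direction between the mock groups; LIN28B was at -2.42. LIN28B lay between -2.50 and -2.33 when an array was left out. No gene that was both named by rule and called turned its direction under any of these. MALAT1, which was not called, differed by -0.07 against mock not induced cells and by 0.08 against mock induced cells. Without mock not induced replicate 2, SLC9A3-AS1 moved to -0.55, MCF2L-AS1 to -0.48 and KRT10-AS1 to 0.20; without mock not induced replicate 1, LINC00957 moved to -0.36; without knockdown replicate 1, ZNF225-AS1 moved to -0.38 and THUMPD3-AS1 to -0.27. The cause was not tested. Signal over background was not used here, so how far low readings limit the calls was not tested.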
